A study of Mus musculus with 7 samples.

Results

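The genes described here encode the Polycomb machinery: the subunits of Polycomb repressive complexes PRC1 and PRC2 and of the deubiquitinase that opposes PRC1. They were taken as a list of 33 named genes, and each name matched 1 row of the deposited table of 53379 genes. The RNA came from splenic natural killer (NK) cells of C57BL/6 mice, in 4 Hhex KO libraries (Hhex-deficient NK cells) and 3 Cre control libraries (the controls). The cells were sorted alive and ex vivo for C45 (the spelling of the labels), Nk1.1, NKp46 and CD49b, and against the T cell marker CD3. Which Cre line was used, whether the deletion was limited to NK cells, and the age and sex of the mice are not stated in the labels. In bulk RNA of sorted cells, a change in RNA per cell cannot be told apart from a change in the share of cells that carry the RNA.

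PRC2 places methyl groups on lysine 27 of histone H3, through the catalytic subunit EZH1 or EZH2 held by EED and SUZ12. PRC1 attaches ubiquitin to histone H2A through RING1 or RNF2, and its PCGF, CBX and PHC partners decide which form of the complex is built and where it binds. Both act to keep developmental and cell cycle inhibitor genes silent, and EZH2 is known as a subunit that dividing cells make in larger amounts than resting cells. Hhex, a homeobox transcription factor, has been linked to PRC2 in leukaemia cells, where it takes part in silencing the cell cycle inhibitor gene Cdkn2a.

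Hhex itself was at 93.5 to 96.1 CPM (each count relative to the TMM-scaled total of its library) in the controls and at 54.2 to 64.8 CPM in Hhex KO, so its RNA was lower but not absent. Which exons were deleted is not stated in the labels. Total counts ranged from 10589915 to 18456404 per library. All 12 NK marker genes were tested and edgeR called 0 of them, with 2 lower at an unadjusted p below 0.05, while DESeq2 called 1 lower. Those 2 genes, Gzmb and Prf1, encode granzyme B and perforin, and Ncr1, which encodes NKp46 and was chosen after its values were seen, lay at 834 to 1035 CPM in the controls and at 791 to 1004 CPM in Hhex KO. Of 10 markers of type 1 innate lymphoid cells, 9 were called higher, among them Cxcr6, Tmem176a, Itga1 and Il7r. The remaining 1 went the other way, with a log2 fold change of -0.75 and an unadjusted p below 0.05. All its Hhex KO libraries lay below the controls, and DESeq2 called 9 markers higher and 1 lower. The sum of the 10 was 142 to 172 CPM in the controls and 553 to 731 CPM in Hhex KO. T cell markers summed to 249 to 279 CPM and 317 to 443 CPM (8 of 12 tested, 1 higher, Trbc2). All 8 had estimates above 0, and 6 were higher at an unadjusted p below 0.05, against 10.1% of all genes tested. B and plasma cell markers summed to 231 to 305 CPM and 302 to 558 CPM (6 of 10 tested, 2 higher, Cd22 and Cd79b). All 6 had estimates above 0, and 3 were higher at an unadjusted p below 0.05. DESeq2 called 2 T cell and 3 B and plasma cell markers higher. Myeloid and dendritic cell markers summed to 55.0 to 153 CPM in the controls and 24.5 to 527 CPM in Hhex KO, the highest in Hhex KO replicate 2, and erythroid markers to 4.32 to 25.1 CPM and 1.95 to 47.3 CPM. The part of these cells in the Polycomb values was not tested.

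All 33 genes passed the filter on low counts and were tested, and 2 of them, Pcgf6 and Cbx6, differed between the groups. Both were higher in Hhex KO, and 0 Polycomb genes were called lower by edgeR, DESeq2 or unweighted limma-voom on all 7 libraries. With the replicate number as a block, over 6 libraries, edgeR called 1 lower (Phf1). Genes were tested by quasi-likelihood in edgeR, with p-values adjusted by Benjamini-Hochberg over 12161 genes, and a gene was called at an adjusted p below 0.05. That rule called 4.56% of all genes tested (2.68% higher and 1.87% lower), against 6.06% of the Polycomb genes, so the share is near the background. At an unadjusted p below 0.05 there were 6 Polycomb genes, all higher (18.2%), against 18.5% of all genes tested (10.1% higher and 8.45% lower). The libraries of the groups did not overlap for 9 Polycomb genes (27.3%), 6 with Hhex KO above and 3 with it below, against 19.3% of all genes (9.37% above and 9.98% below). The median log2 fold change was 0.02 over the Polycomb genes and 0.02 over all genes, and the summed level of the 33 genes was 2448 to 2568 CPM in the controls and 2491 to 2643 CPM in Hhex KO. The 2 calls became 0 without any 1 of the Cre control libraries or of Hhex KO replicates 1, 2 and 3, and 4 (Cbx2, Cbx6, Ezh2 and Pcgf6) without Hhex KO replicate 4. DESeq2 called the same 4, and limma-voom with sample quality weights, which called 23.6% of all genes, called 6 higher and 3 lower (Cbx7, Phc1 and Phf1).

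**Figure D1:**
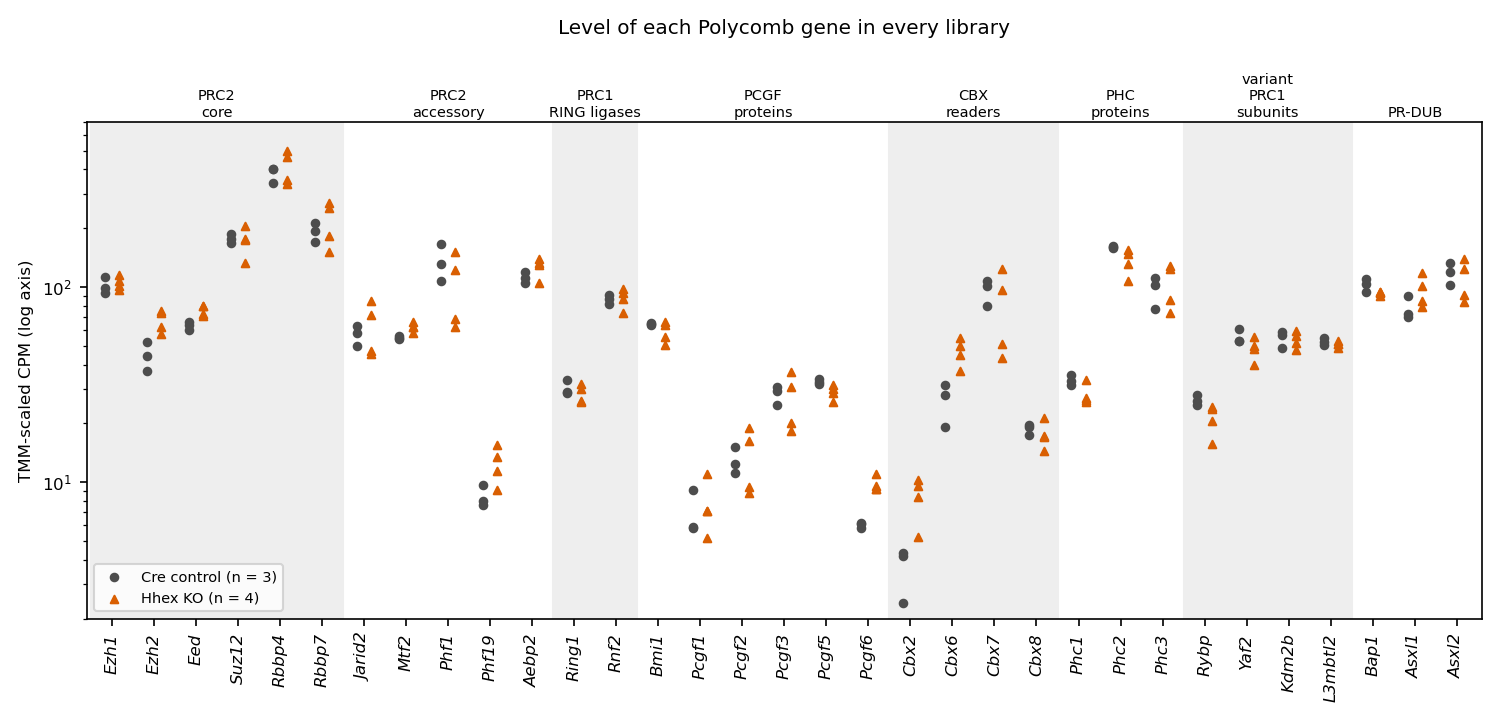
Level of each of the 33 Polycomb genes in TMM-scaled CPM on a log axis, 1 point per library (grey circles: 3 Cre control, orange triangles: 4 Hhex KO), grouped by the role of the protein. Most genes show overlapping points, while all Hhex KO points lie above all Cre control points for Ezh2, Eed, Mtf2, Pcgf6, Cbx2 and Cbx6.

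The intervals show what size of change these libraries leave possible. The 95% interval of the fold change lay inside a 1.5-fold change in either direction for 19 of the 33 genes, and inside a 2-fold change for 27. Over the 33 genes, the lower bounds went down to -1.16 (Phf1) and the upper bounds went up to 1.90 (Cbx2) on the log2 scale.

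**Figure D2:**
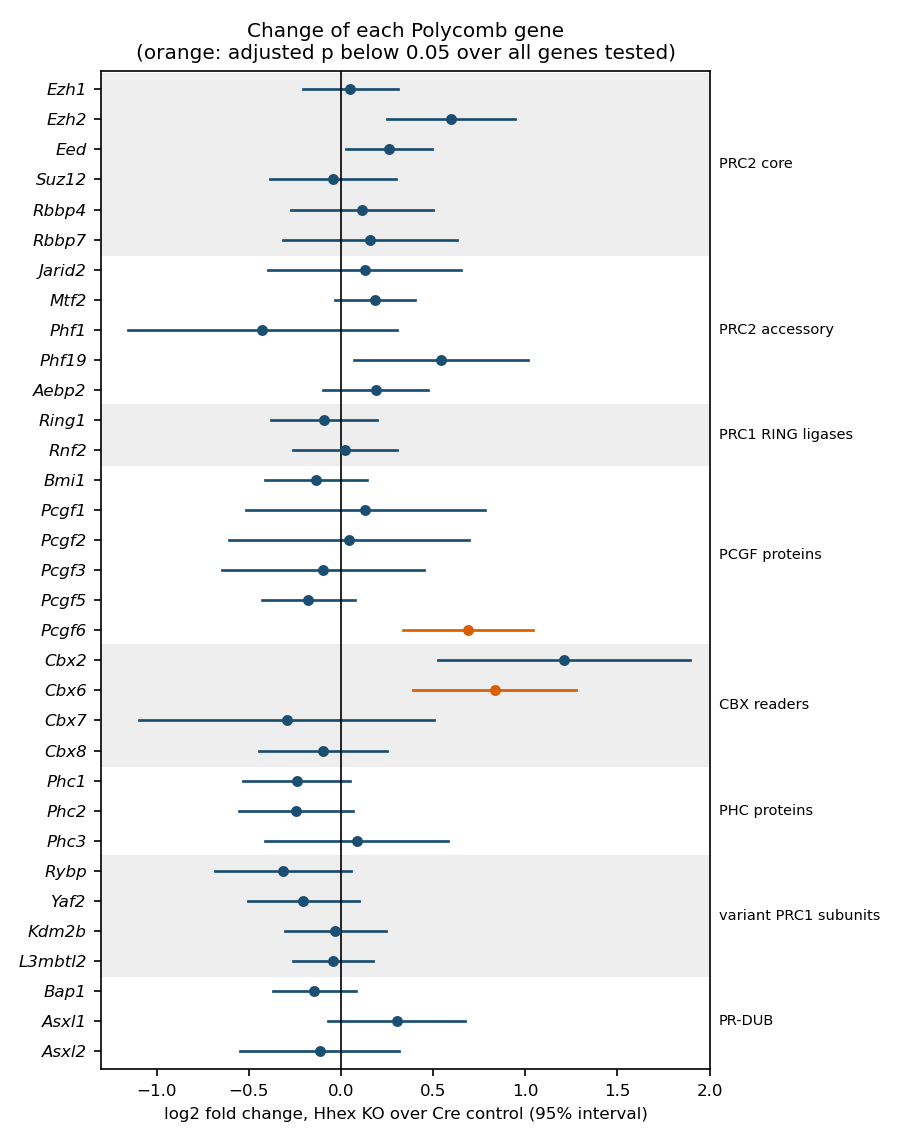
Log2 fold change of each Polycomb gene, Hhex KO over Cre control, with its 95% interval from edgeR's quasi-likelihood fit (n = 4 and n = 3). Pcgf6 at 0.69 and Cbx6 at 0.83 (orange) were called, and Cbx2 had a larger estimate of 1.21 with a wider interval.

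Promoters are shown here because E2F factors, which drive genes of the DNA synthesis phase, are known to act on several Polycomb genes. The motifs TTTCCCGC, TTTCGCGC, TTTGCCGC and TTTGGCGC, forms of the E2F site, were searched on both strands, and no matching Polycomb window held more than 1 match, in the RefSeq promoters of build GRCm38.p6 (250 bases before to 50 after the start). A match was present for 3 of the 29 Polycomb genes that the promoter table holds (10.3%), against 2.61% of 27025 genes with a promoter there. These were Ezh2, Phf19 and Suz12. The windows of these genes are written 5′ to 3′ on the strand of the gene, with the match in capitals, followed by those of the called genes Pcgf6 and Cbx6, which hold no match.
Ezh2 promoter (chr6:47594981-47595280, minus strand): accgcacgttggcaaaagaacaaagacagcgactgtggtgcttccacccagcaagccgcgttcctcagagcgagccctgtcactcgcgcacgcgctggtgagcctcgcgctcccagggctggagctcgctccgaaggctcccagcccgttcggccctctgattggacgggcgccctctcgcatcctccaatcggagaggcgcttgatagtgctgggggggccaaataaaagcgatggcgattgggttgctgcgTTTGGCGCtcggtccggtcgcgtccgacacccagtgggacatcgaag
Phf19 promoter (chr2:34913927-34914226, minus strand): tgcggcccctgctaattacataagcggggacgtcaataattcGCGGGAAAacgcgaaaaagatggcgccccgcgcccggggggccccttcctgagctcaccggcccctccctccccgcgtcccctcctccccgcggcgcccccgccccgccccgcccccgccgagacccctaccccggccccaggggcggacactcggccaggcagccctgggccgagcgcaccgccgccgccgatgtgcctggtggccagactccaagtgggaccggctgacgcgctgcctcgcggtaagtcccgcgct
Suz12 promoter (chr11:79992856-79993155, plus strand): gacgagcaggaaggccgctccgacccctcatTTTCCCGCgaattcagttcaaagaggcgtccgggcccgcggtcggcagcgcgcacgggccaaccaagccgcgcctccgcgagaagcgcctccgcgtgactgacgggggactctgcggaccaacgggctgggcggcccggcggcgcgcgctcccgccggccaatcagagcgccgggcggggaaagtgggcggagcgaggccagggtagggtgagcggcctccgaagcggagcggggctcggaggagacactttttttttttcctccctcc
Pcgf6 promoter (chr19:47050857-47051156, minus strand): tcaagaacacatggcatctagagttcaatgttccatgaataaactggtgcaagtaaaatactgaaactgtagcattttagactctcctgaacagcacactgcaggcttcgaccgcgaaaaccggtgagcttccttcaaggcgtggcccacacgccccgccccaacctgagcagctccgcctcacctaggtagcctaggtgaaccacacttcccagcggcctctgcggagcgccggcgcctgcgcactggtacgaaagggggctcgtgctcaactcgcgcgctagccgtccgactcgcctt
Cbx6 promoter (chr15:79834284-79834583, minus strand): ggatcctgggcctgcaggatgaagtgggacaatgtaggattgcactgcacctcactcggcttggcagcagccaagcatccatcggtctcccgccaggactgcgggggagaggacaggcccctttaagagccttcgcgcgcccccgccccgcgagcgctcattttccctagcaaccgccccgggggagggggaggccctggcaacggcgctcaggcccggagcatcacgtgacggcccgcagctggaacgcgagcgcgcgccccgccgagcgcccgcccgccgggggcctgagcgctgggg
In Phf19 the match is on the other strand, so the capitals show its reverse complement. The match in Ezh2 falls just after the start, and those in Phf19 and Suz12 begin 208 and 219 bases before it. Ezh2 and Phf19 are among the 6 genes past an unadjusted p of 0.05, and Suz12 is not. Of the rest of the 6, Eed, Pcgf6 and Cbx6 had windows without a match, and Cbx2 had no window. Rybp, Yaf2 and Pcgf1 also had no window. A match is a string of letters and not a site shown to be bound. The Polycomb windows were rich in CG dinucleotides, with a median of 24 per 300-base window against 7 over all windows, and 35 of the 40 windows lay at or above the overall median.

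Among the catalytic subunits of PRC2, Ezh2 (chromosome 6, 47530139 to 47595341, minus strand, GENCODE M21 on GRCm38) was at 37.0, 44.3 and 52.0 CPM in replicates 1, 2 and 3 of the controls, and at 75.1, 62.5, 73.5 and 57.4 CPM in Hhex KO replicates 1, 2, 3 and 4. Every Hhex KO library lay above every Cre control library. The log2 fold change was 0.59 ± 0.15 (SE), a 1.51-fold higher level, and did not pass the test over all genes (edgeR adjusted p = 0.0667). Its 95% interval ran from 0.25 to 0.94. It passed without Hhex KO replicate 4 (adjusted p = 0.0438) and with no filter on low counts (0.0413). Ezh1, the catalytic subunit that resting cells also keep, was at 93.3, 99.0 and 112 CPM in the controls and at 115, 96.9, 101 and 107 CPM in Hhex KO. These values overlapped, with a log2 fold change of 0.05 ± 0.11 and a 95% interval of -0.21 to 0.31.

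The scaffold subunits differed less. Eed, which encodes the reader of methylated H3, was at 65.8, 64.0 and 59.9 CPM in the controls and at 70.6, 72.4, 79.8 and 79.9 CPM in Hhex KO, a log2 fold change of 0.26 ± 0.10 with groups that did not overlap (edgeR adjusted p = 0.218). Suz12, which holds the complex together, was at 168, 177 and 187 CPM in the controls and at 174, 176, 205 and 132 CPM in Hhex KO, which straddled the control range. The histone chaperone genes Rbbp4 and Rbbp7, shared by PRC2 with other chromatin complexes, share 18% and 5.98% of their exonic bases with antisense genes and had log2 fold changes of 0.11 ± 0.17 and 0.16 ± 0.21. In both, Hhex KO replicates 2 and 3 were above all controls while the other Hhex KO libraries were not: Rbbp7 was at 253 and 270 CPM there, at 181 and 152 CPM in replicates 1 and 4, and at 170 to 213 CPM in Cre control.

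Of the 5 accessory subunits of PRC2, 0 were called by edgeR or DESeq2 on all 7 libraries, and 1 (Phf19) had an unadjusted p below 0.05. Phf19, a Polycomb-like protein that reads methylated H3K36, had 8.02, 7.66 and 9.73 CPM in the controls and 15.5, 11.3, 13.4 and 9.12 CPM in Hhex KO. Hhex KO replicate 4 was inside the control range and the others were above it, and the log2 fold change was 0.54 ± 0.21 (edgeR adjusted p = 0.202). The related genes Mtf2 and Phf1 did not move alike: Mtf2 was at 54.0 to 55.9 CPM in the controls and 58.4 to 66.1 CPM in Hhex KO, a log2 fold change of 0.18 ± 0.10, and Phf1 at 108 to 167 CPM and 62.1 to 151 CPM, a log2 fold change of -0.43 ± 0.32. Antisense genes such as Cuta cover 39.3% of the exonic bases of Phf1, and the labels do not state whether the counting used strand, so the Phf1 value is uncertain. Aebp2 and Jarid2, which encode subunits of the other PRC2 subtype, had log2 fold changes of 0.19 ± 0.13 and 0.13 ± 0.23.

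Neither RING ligase gene of PRC1 was called, and both had overlapping groups. Ring1 was at 33.3, 28.5 and 29.1 CPM in the controls and at 29.98, 26.01, 25.8 and 32.0 CPM in Hhex KO. Rnf2, which encodes RING1B, was at 81.5, 90.9 and 87.1 CPM in the controls and at 73.2, 93.3, 98.1 and 86.6 CPM in Hhex KO. The 95% intervals of the log2 fold changes were -0.38 to 0.20 for Ring1 and -0.26 to 0.30 for Rnf2.

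The 6 PCGF genes decide which PRC1 is assembled, since a RING protein binds a single PCGF partner. Pcgf6 (chromosome 19, 47033617 to 47050906, minus strand), the PCGF subunit of the PRC1.6 form that also holds L3MBTL2 and E2F6, was at 5.85, 6.16 and 6.11 CPM in the controls and at 9.20, 9.22, 9.60 and 11.0 CPM in Hhex KO. The groups were apart and each was tight, with counts of 70 and more in each library. Pcgf6 rose 1.61-fold, a log2 fold change of 0.69 ± 0.16 (edgeR adjusted p = 0.0424). The call was lost without any 1 of the 3 Cre control libraries (adjusted p 0.143 to 0.178) and without Hhex KO replicate 1, 2 or 3 (0.0701 to 0.106), and it held without Hhex KO replicate 4 (0.0498). It was also lost with no filter on low counts, at 0.097, and in the fit with the replicate number as a block. The fold change itself stayed between 0.62 and 0.72 over the 14 alternatives that could test it.

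The other PCGF genes did not pass the test. Bmi1, which encodes the PCGF subunit of canonical PRC1 best known from stem cell self-renewal, was at 65.7, 64.1 and 64.4 CPM in the controls and at 50.3, 63.8, 66.2 and 55.4 CPM in Hhex KO, with a log2 fold change of -0.14 ± 0.12. Pcgf5, whose gene ends 974 kb before Hhex on chromosome 19, was at 31.8 to 33.9 CPM in the controls and 25.9 to 31.5 CPM in Hhex KO. Its groups did not overlap, but the log2 fold change of -0.18 ± 0.11 did not pass the test (edgeR adjusted p = 0.458). Pcgf1, Pcgf2 and Pcgf3 had log2 fold changes of 0.13 ± 0.29, 0.04 ± 0.29 and -0.10 ± 0.24.

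CBX proteins place canonical PRC1 by reading methylated H3K27, and here they held the largest estimates. Cbx6 (chromosome 15, 79823896 to 79834688, minus strand) was at 19.2, 31.5 and 27.9 CPM in the controls and at 49.7, 45.1, 54.6 and 37.3 CPM in Hhex KO. All Hhex KO libraries were above the controls. Cbx6 rose 1.78-fold, a log2 fold change of 0.83 ± 0.20 (edgeR adjusted p = 0.0481). The Npcd gene on the same strand shares 5.31% of the exonic bases of Cbx6, so a part of its reads could have gone to Npcd or been left out. The call was lost without any 1 Cre control library (adjusted p 0.0764 to 0.164) and without Hhex KO replicate 1, 2 or 3 (0.0772 to 0.106), and it held without Hhex KO replicate 4 (0.0281).

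Cbx2 (chromosome 11, 119022962 to 119031270, plus strand) had the lowest control level of the 33 genes in CPM, and was at 2.40, 4.31 and 4.16 CPM in the controls and at 9.58, 8.42, 10.3 and 5.23 CPM in Hhex KO. The groups did not overlap, with Hhex KO replicate 4 nearest to the controls. Its log2 fold change, 1.21 ± 0.30 or 2.32-fold, had the largest size of the 33 and did not pass the test (edgeR adjusted p = 0.0594). It passed without Hhex KO replicate 4 (adjusted p = 0.02) and with no filter on low counts (0.0144). Cbx8, which lies 5.04 kb from Cbx2, was at 17.5 to 19.5 CPM in the controls and 14.5 to 21.3 CPM in Hhex KO, and Cbx7, 81.1 kb from Cbx6, at 79.5 to 107 CPM and 43.3 to 123 CPM. Their log2 fold changes were -0.10 ± 0.15 and -0.29 ± 0.35.

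Whether 1 of 2 related genes moved against the other was asked with the ratio of their counts within each library, which no scaling of the libraries can change. These 3 pairs were picked with their values already seen. The Ezh2 to Ezh1 ratio was 0.397, 0.447 and 0.464 in the controls and 0.651, 0.645, 0.726 and 0.536 in Hhex KO. The Cbx2 to Cbx8 ratio was 0.137, 0.221 and 0.217 in the controls and 0.565, 0.487, 0.711 and 0.245 in Hhex KO. Both ratios were higher in all 4 Hhex KO libraries, by 0.55 and 1.32 on the log2 scale. Neither passed an exact two-sided permutation test of the mean log2 ratio (p = 0.0571 each, adjusted p = 0.0857 over the 3 pairs). The smallest possible p was 0.0286, which for a lone pair would also adjust to 0.0857. With 35 arrangements the test could thus hardly pass, and it does not decide whether the ratios differ. The Cbx6 to Cbx7 ratio overlapped between the groups, at 0.179 to 0.396 and 0.303 to 1.26 (exact permutation p = 0.114, adjusted p = 0.114).

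**Figure D3:**
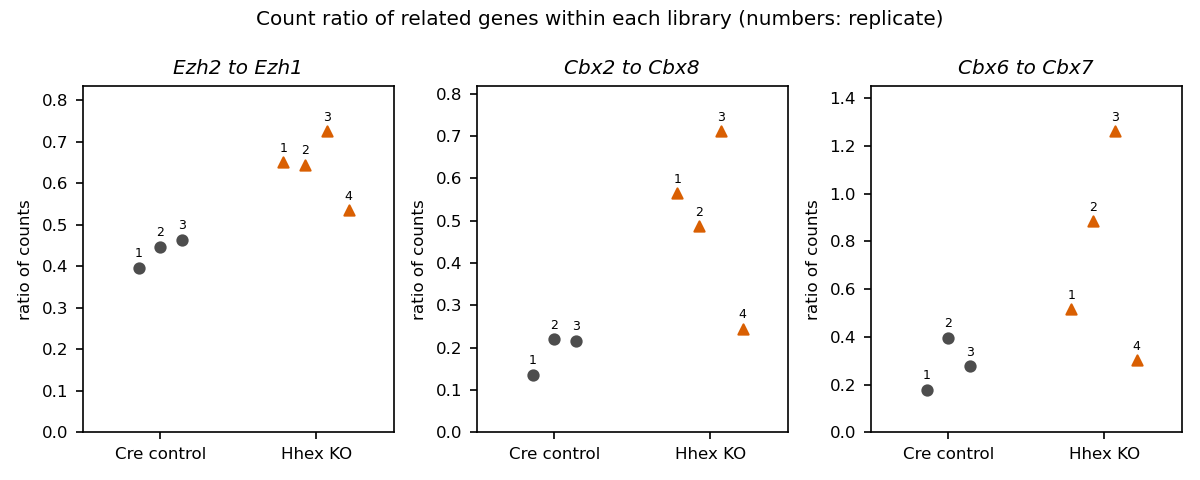
Ratio of the counts of 2 related Polycomb genes within each library, 1 point per library and linear axes from 0 (grey: 3 Cre control, orange: 4 Hhex KO, small numbers: replicate). The Ezh2 to Ezh1 and Cbx2 to Cbx8 ratios are higher in all 4 Hhex KO libraries, and Hhex KO replicate 4 has the lowest of the Hhex KO ratios in each panel.

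PHC proteins join PRC1 complexes into larger assemblies. Phc1, Phc2 and Phc3 had log2 fold changes of -0.24 ± 0.13, -0.24 ± 0.14 and 0.09 ± 0.22, and 0 were called by edgeR or DESeq2, with 0 at an unadjusted p below 0.05. Phc2 was at 158 to 162 CPM in the controls and 108 to 154 CPM in Hhex KO, so its groups did not overlap. Variant PRC1 comprises the forms without a CBX reader. The 4 genes grouped here under it, Rybp, Yaf2, Kdm2b and L3mbtl2, had estimates below 0. The PCGF subunits of these forms, Pcgf6 among them, were counted above with the PCGF genes, whose estimates ran from -0.18 to 0.69. Rybp, whose product stimulates the ubiquitin ligase, was at 24.7 to 27.9 CPM in the controls and 15.8 to 24.3 CPM in Hhex KO, a log2 fold change of -0.32 ± 0.16 (edgeR adjusted p = 0.354), and its relative Yaf2 was at -0.20 ± 0.13. Kdm2b, which brings variant PRC1 to unmethylated CG-rich DNA, and L3mbtl2 had log2 fold changes of -0.03 ± 0.12 and -0.04 ± 0.10. In the deubiquitinase that removes the mark of PRC1, the catalytic subunit gene Bap1 had a log2 fold change of -0.14 ± 0.10, and its partners Asxl1 and Asxl2 had 0.30 ± 0.16 and -0.11 ± 0.19.

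The order of the 33 genes was read per exonic length, as CPM per kb of exon, since longer transcripts give more reads. In Cre control, Rbbp7 was highest at 66.1 ± 7.47 CPM per kb (SD, n = 3), followed by Rbbp4 at 43.6 ± 3.93, Phf1 at 38.8 ± 8.55 and Suz12 at 35.8 ± 1.90. Rbbp7 stood above Rbbp4 without overlap, and Rbbp4, Phf1 and Suz12 overlapped from neighbour to neighbour. Ezh1, at 13.6 ± 1.29 CPM per kb, stood above Ezh2, at 6.65 ± 1.12. In Hhex KO their levels were 14.1 and 10.05 CPM per kb. Within PRC1 the Rnf2 level of 20.96 CPM per kb exceeded the Ring1 level of 9.34, and Bmi1, at 16.3 CPM per kb, was the highest PCGF gene. Pcgf6 and Cbx2 were the lowest 2 of the 33 in Cre control, at 1.20 and 0.851 CPM per kb. Exonic length counts every annotated exon, so a gene with many rarely used exons reads too low.

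**Figure D4:**
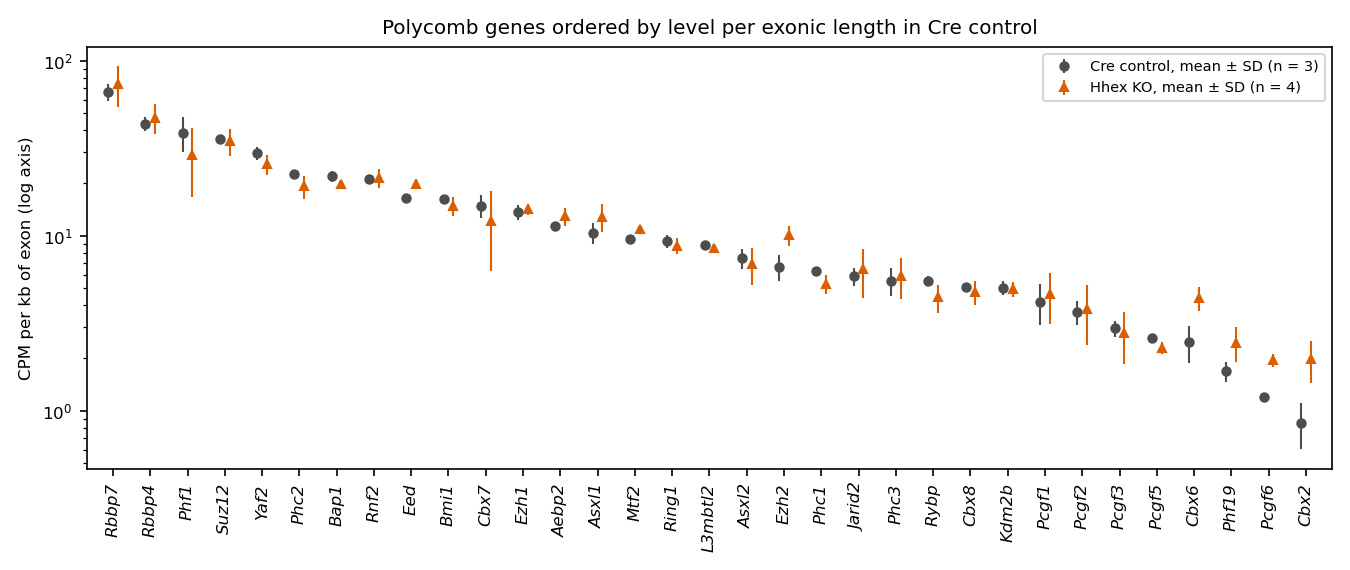
Level per exonic length of the 33 Polycomb genes in CPM per kb of exon on a log axis, mean ± SD, ordered by the Cre control level (grey: n = 3, orange: n = 4 Hhex KO). The order runs from Rbbp7 at 66.1 to Cbx2 at 0.851 CPM per kb in Cre control.

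The spread between libraries was wider in Hhex KO than in Cre control for 30 of the 33 genes (90.9%), and for 79.6% of all genes tested. For Jarid2 and Cbx7 the Hhex KO libraries fell on both sides of the controls. Jarid2 was at 57.9, 49.98 and 63.0 CPM in the controls and at 85.0, 46.9, 45.4 and 72.1 CPM in Hhex KO. Cbx7 was at 96.3, 51.0, 43.3 and 123 CPM in the Hhex KO libraries, and Phf1 at 122, 68.3, 62.1 and 151 CPM, inside or below the control range. In all 3 genes Hhex KO replicates 1 and 4 were the higher and replicates 2 and 3 the lower of the group. The summed level of nuclear-retained RNAs (Malat1, Neat1 and Kcnq1ot1, with Meg3 and Snhg11 at 0 in all libraries) was 1130, 202, 179 and 1058 CPM in the Hhex KO libraries and 804, 315 and 500 CPM in the Cre control libraries. Its part in the Polycomb values was not tested.

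The Polycomb genes with higher estimates were read beside proliferation. Of 30 proliferation genes, 8 were called higher and 0 lower by edgeR (20 higher by DESeq2, 1 to 18 with 1 library left out, fewest without Cre control replicate 3 and most without Hhex KO replicate 4), and all 30 had log2 fold changes above 0, with a median of 1.56. The cyclin E2 gene Ccne2 rose by 1.91 ± 0.21, Ccnb1 by 1.72 ± 0.28, Tk1 by 1.97 ± 0.33 and Birc5, which encodes survivin, by 2.04 ± 0.37 on the log2 scale. Mki67 ranged from 7.79 to 26.3 CPM in the controls and from 32.5 to 55.1 CPM in Hhex KO replicates 2, 3 and 4, and replicate 1 reached 223 CPM (edgeR adjusted p = 0.109). The summed level of the 30 genes was 1069, 1605 and 1498 CPM in the controls and 2504, 2820, 2979 and 1481 CPM in Hhex KO. The sum of Hhex KO replicate 4 was thus inside the control range, although for 17 of the 30 genes, Ccne2, Tk1, Birc5 and Mki67 among them, every Hhex KO library lay above every control. Hhex KO replicate 4 also had the lowest Hhex KO level of Ezh2, Cbx2, Cbx6 and Phf19. The same held for Rbbp7 and Aebp2, and for Suz12, Pcgf5, Phc2, Rybp and L3mbtl2, whose estimates were below 0. Hhex KO replicate 4 had the highest of Pcgf6, of Eed (79.9 CPM, against 79.8 CPM in replicate 3) and of Mtf2 (66.1 CPM). It was also highest for Phf1, Ring1, Pcgf1, Pcgf2, Pcgf3, Cbx7, Cbx8 and Bap1. The part of dividing cells in the Polycomb values was not tested.

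**Figure D5:**
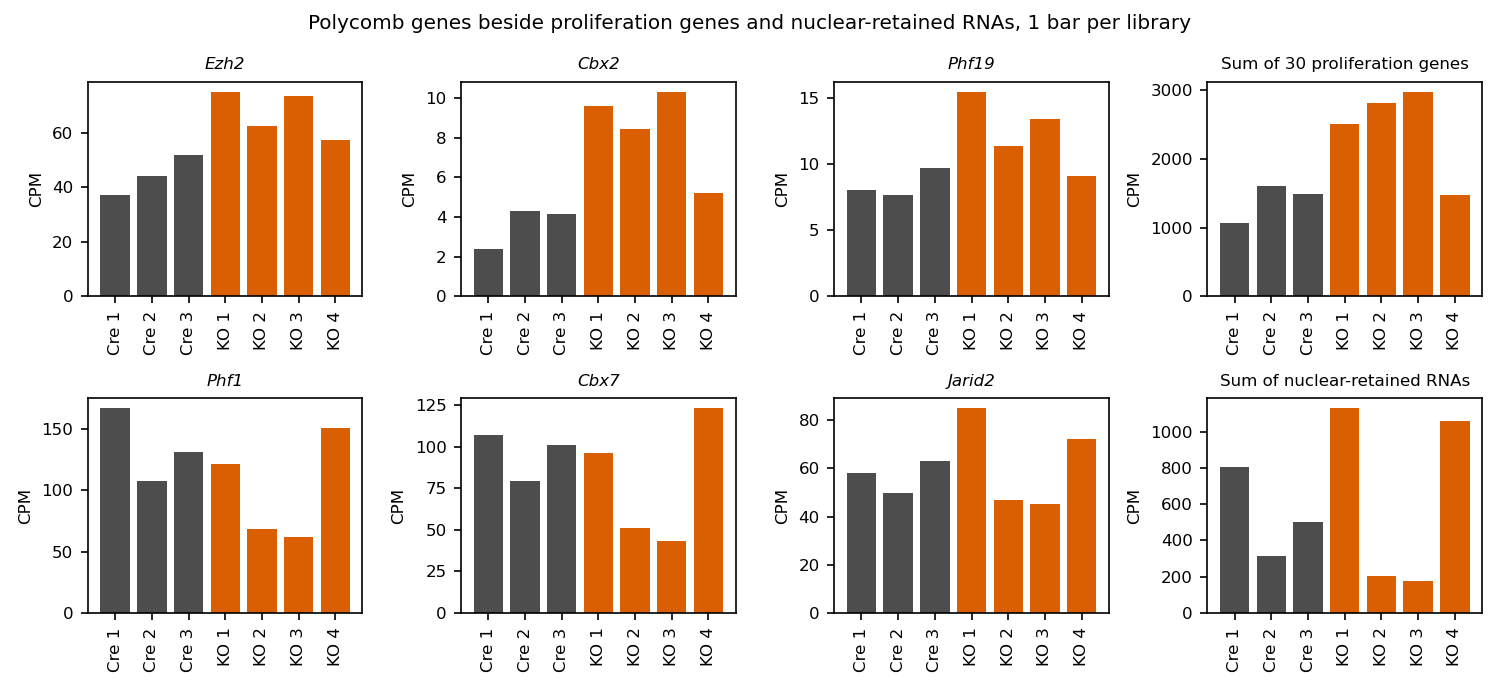
Levels in CPM of 6 Polycomb genes, the summed 30 proliferation genes and the summed nuclear-retained RNAs, 1 bar per library, with axes from 0 (grey: Cre control, orange: Hhex KO). Hhex KO replicate 4 has the lowest bar of its group for Ezh2, Cbx2, Phf19 and proliferation, and Hhex KO replicates 2 and 3 have the lowest for Phf1, Cbx7, Jarid2 and nuclear-retained RNAs.

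The other genes of the pathway are given beside the 4.56% called over all genes. Of 31 further Polycomb components and partners, 27 were tested, 1 was called higher and 0 lower, with 2 higher and 2 lower at an unadjusted p below 0.05 and a median log2 fold change of -0.04. DESeq2 called 2 higher and 0 lower. The called gene was Tfdp1, the dimer partner of E2F factors, at 29.8, 40.0 and 32.2 CPM in the controls and 56.1, 73.7, 81.3 and 49.6 CPM in Hhex KO (log2 fold change 0.94 ± 0.20, edgeR adjusted p = 0.0318). E2f6, a PRC1.6 subunit like Pcgf6, was at 19.0 to 19.99 CPM in the controls and 23.1 to 30.9 CPM in Hhex KO (0.47 ± 0.14, edgeR adjusted p = 0.0967). L3mbtl2, of the same PRC1.6 form, was at -0.04 ± 0.10. The 2 genes lower at an unadjusted p below 0.05 were Scmh1 (-0.40 ± 0.14) and Bcorl1 (-0.33 ± 0.13), whose groups did not overlap. E2f6, Scmh1 and Bcorl1 were chosen after their values were seen. Without any 1 of the Cre control libraries or Hhex KO replicates 2 and 3, edgeR called 0 genes among these components, the demethylase and COMPASS genes, the SWI/SNF genes and the Polycomb-silenced genes together, and without Hhex KO replicate 4 it called 3.

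Among genes of complexes that oppose Polycomb, 0 were called by edgeR or DESeq2 on all 7 libraries. Of 18 H3K27 demethylase and COMPASS genes 17 were tested, with 0 called, 0 at an unadjusted p below 0.05 in either direction and a median log2 fold change of 0.06. DESeq2 also called 0. The smallest p-values belonged to Dpy30 (0.31 ± 0.15) and Kmt2d (0.68 ± 0.56), subunits of COMPASS complexes. The H3K27 demethylase genes Kdm6a and Kdm6b, chosen after their values were seen, had log2 fold changes of -0.14 ± 0.13 and -0.19 ± 0.32. Of 19 SWI/SNF genes, which encode the chromatin remodeller that evicts Polycomb, 0 were called and 2 had an unadjusted p below 0.05. These were Brd9 (0.62 ± 0.22) and Smarcc1 (0.41 ± 0.17), both higher.

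Most genes that Polycomb is known to silence were near or below detection in both groups. Of 30 such genes, 12 had no count in any library, 24 averaged below 1 CPM in both groups, 7 could be tested and 0 of those were called by edgeR or DESeq2, with 1 lower at an unadjusted p below 0.05. Hoxb3 was at 8.98 to 11.9 CPM in the controls and 1.94 to 8.16 CPM in Hhex KO, groups that did not overlap, with a log2 fold change of -1.12 ± 0.46 (edgeR adjusted p = 0.245). Hoxa7 was at 0.450 to 1.58 CPM and 0.797 to 2.59 CPM, which overlapped (0.91 ± 0.53). Cdkn2a, the gene whose silencing has been tied to Hhex and PRC2, had 0, 0 and 0 counts in the Cre control libraries and 6, 7, 1 and 1 in the Hhex KO libraries. The 15 counts, taken as they stand, over a limit of 3 counts for the control group gave a ratio of 3.53. The limit covers counting error in the controls only. Counting error in the Hhex KO counts and the spread between samples are not covered, so the ratio is not a lower bound. At 0.245 CPM the gene was too low for the filter, and with no filter its edgeR adjusted p was 0.134. Other untested genes of the list, named after their values were seen, went either way at similar counts. Cdkn2b had 2, 4 and 7 counts in the controls and 2, 0, 0 and 1 in Hhex KO, and Fgf5 1, 2 and 3 against 0 in each. Lhx2 had 1, 1 and 1 against 5, 8, 6 and 1, and Hoxa9 0, 1 and 3 against 3, 10, 7 and 2.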

How the data were processed

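Per the submitters' processing notes, reads were aligned with STAR to mm10 and counted with featureCounts, without versions. Per the labels' protocols, libraries were directional and read as 75 bp single ends. The authors deposited raw, not normalized read counts of 53379 genes in 7 libraries. For the annotation release and strand setting: not given in the sources used here. Columns were matched to samples by the description label, 0 were left unused and 0 rows lacked a gene. Symbols came from the gene name table (99.8% of identifiers matched without version), coordinates and exonic lengths from GENCODE M21 on GRCm38, the mm10 assembly.

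Counts were fitted with edgeR 4.0.16 in R 4.3.3 over all genes: filter by group (minimum count 10, minimum total 15), TMM scaling and the robust quasi-likelihood F test without covariates, Hhex KO against Cre control. The SE was the size of the log2 fold change over the square root of F. Adjusted p-values printed without a tool are from this edgeR fit, by Benjamini-Hochberg over 12161 genes. CPM were computed from the deposited counts with the same scaling. Within groups the chi-square per degree of freedom between libraries was 11.2 to 78.5, so none was a repeat. The controls lay at 15.7 to 17.5. In Hhex KO it was 11.2 for replicates 2 and 3 and 28.3 for replicates 1 and 4, and 69.2 to 78.5 across these pairs. The sample quality weights were lowest for Hhex KO replicates 1 (0.342) and 4 (0.262). The labels call the samples biological replicates but name no animals, so p-values measure only the spread between these samples. Sample numbers run from 20 to 28 except for Hhex KO replicate 4, numbered 95, and no batch is named.

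The alternatives were upper-quartile and RLE scaling, no count filter, a floor of 10 CPM to be met by 3 libraries, limma-voom (limma 3.58.1) without and with sample quality weights, DESeq2 1.42.0, the replicate number as a block, and each library left out. In simulated counts of the 12161 genes edgeR recovered 8 of 66 genes at a 1.5-fold change, 38 of 62 at 2-fold and 60 of 66 at 4-fold, and unchanged genes made up 8.62% of the calls. The simulation drew each gene independently and gave both groups the same spread. In the data the spread was wider in Hhex KO for 79.6% of all genes tested, so these shares may differ there. The Polycomb genes, gene lists and the rule for named genes (all 33 genes, and from each list up to 4 called genes or else the 2 with the smallest p, with Cdkn2a, Hhex and Mki67 added) were chosen with earlier results of these data known. No protein sequences were used here.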

Additional observations from a re-analysis of the deposited data

Results flagged for a closer look

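In the Hhex KO group of 4 libraries, 2 of the 33 Polycomb genes had 1 library far from the others (a gap to its neighbour, as a share of the group's range, above Dixon's 95% limit for 4 values). Chance gives about 1 in 20. Phc1 was at 33.4 CPM in Hhex KO replicate 1 and at 25.7 to 26.9 CPM in the other 3, a gap of 0.838 of the range. Bap1 was at 89.5 CPM in Hhex KO replicate 3 and at 93.6 to 94.4 CPM in the others, a gap of 0.845 of a narrow range. Groups of 3 libraries were not examined in this way.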

How the results depend on the processing

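Another scaling and limma-voom called the same Polycomb genes, Pcgf6 and Cbx6. With no count filter 3 were called, Cbx2, Cbx6 and Ezh2, so that Pcgf6 was lost. No scaling moved the median log2 fold change of all genes by over 0.1. The filter of at least 10 CPM gave 1 Polycomb gene of 30 tested and 186 higher genes in all. DESeq2 gave 4 higher Polycomb genes, 625 higher and 469 lower genes in all, 2 higher genes over the pathway lists (other Polycomb, COMPASS, SWI/SNF and silenced genes) and 20 proliferation genes. With sample quality weights the counts were 6 higher and 3 lower, 1541 and 1323, 7 and 7, and 28. Same-numbered replicates correlated at 0.33, 0.48 and -0.03 in their deviations from the group means, and differently numbered ones at -0.49 to 0.24. So few values cannot settle whether the numbers pair the samples. The fit with the replicate number as a block, over 6 libraries, gave 2 higher (Cbx2 and Cbx6) and 1 lower Polycomb gene (Phf1), without Pcgf6 (adjusted p = 0.0892), 499 higher and 275 lower genes in all, 2 higher genes over the pathway lists and 27 proliferation genes. With 1 library left out, the higher Polycomb genes numbered 0 to 4, all genes 91 to 527 higher and 50 to 291 lower, pathway lists 0 to 3 and proliferation genes 1 to 18. Signs changed only for Polycomb genes that were not called: Pcgf2 with limma-voom (-0.059), Ezh1 (-0.025), Suz12 (0.042), Jarid2 (-0.20), Pcgf1 (-0.030), Pcgf2 (-0.35) and Phc3 (-0.19) with quality weights, and Suz12 (0.056), Jarid2 (-0.0081), Pcgf1 (-0.090), Pcgf2 (-0.21) and Phc3 (-0.042) with the replicate block. With 1 library left out the log2 fold changes ran from -0.011 to 0.13 for Ezh1, -0.064 to 0.26 for Jarid2, -0.11 to 0.030 for Kdm2b, -0.10 to 0.37 for Pcgf1, -0.17 to 0.20 for Pcgf2, -0.29 to 0.047 for Pcgf3, -0.055 to 0.22 for Phc3, -0.033 to 0.094 for Rnf2 and -0.14 to 0.058 for Suz12. The differences in ratio ran from 0.48 to 0.63 (Ezh2 to Ezh1), 1.10 to 1.63 (Cbx2 to Cbx8) and 0.94 to 1.63 (Cbx6 to Cbx7), an alternative chosen after seeing the data. The causes were not tested. Depth limits Cbx2 most, with 32 counts in Cre control replicate 1.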
